A study of Ovis aries with 8 samples.

Results

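The genes described here are the 9 that encode the methionine cycle of the liver and the path from it to cysteine: MAT1A, MAT2A, GNMT, AHCY, BHMT, MTR, CBS, CTH and CDO1. They were taken by symbol from a liver expression table of 27729 genes, and each symbol was found in 1 row. The table comes from 8 preweaning Assaf lambs reared on milk replacer, with 1 poly(A) RNA library per lamb. Restricted lambs, called RES and numbered 1 to 4, received milk replacer at 120 mL per kg of live body weight. Lambs fed ad libitum, called ADL and also numbered 1 to 4, are listed at 192 mL per kg. RES lambs weighed 7.5 to 8.7 kg at slaughter and ADL lambs 10.4 to 12.45 kg, and lambs of both groups were 33 to 36 days old. Each library held between 15134039 and 17879918 reads assigned to genes.

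In the methionine cycle, methionine is joined to ATP to give S-adenosylmethionine, the methyl donor of the cell. Methyl transfer leaves S-adenosylhomocysteine, which is split to homocysteine. Homocysteine is either methylated back to methionine or passed through transsulfuration to cystathionine and cysteine, from which taurine, sulfate and glutathione are made. The liver carries out most of the body's methionine breakdown, and its MAT1A, GNMT and BHMT are typical of hepatocytes.

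The label of liver was checked against 7 hepatocyte markers, all of which were above 0 in every lamb. Their levels summed to 84774 to 155212 TPM (reads scaled for gene length, with a fixed total per library) in RES and to 88126 to 120741 TPM in ADL. In these libraries ADL 3 stood apart from the other ADL lambs. It was the lowest of the 8 lambs in 42.6% of the 13812 genes tested (mean TPM of at least 1) and in 3 of the 9 members (MAT2A, AHCY and MTR). Rescaling TPM by median of ratios raises ADL 3 most (its factor is 0.838, against 0.932 to 1.04 in RES and 1.01 to 1.19 in the other ADL lambs). Of these 3 members, MAT2A alone then remains lowest in ADL 3. The share of all genes lowest in ADL 3 was not computed after rescaling. The library labelled ADL 3 lay inside the RES range in GNMT, CTH and CBS but below all RES lambs in PEMT, a gene described below. Whether its label is right was not tested. Each comparison is therefore given with and without ADL 3. This lamb was singled out with its levels of these genes in view, so counts and adjusted p-values without it are descriptive. Such adjusted p-values are likely too small. A list of 8 periportal hepatocyte genes summed to 3496 to 5362 TPM in RES. The sum was 11986 to 13843 TPM in the other ADL lambs and 3774 TPM in ADL 3, and all 8 genes were above 0 in every lamb. PCK1 of that list ran the other way, with 1162 to 1706 TPM in RES, against 680 to 957 TPM in 3 ADL lambs and 1626 TPM in ADL 3. The 7 pericentral genes, of which 6 were above 0 in every lamb, summed to 5850 to 7871 TPM in RES, against 4815 to 6996 TPM in 3 ADL lambs and 3061 TPM in ADL 3. Most of that sum was CYP2E1, with 5619 to 7625 TPM in RES, against 4616 to 6829 TPM in 3 ADL lambs and 2841 TPM in ADL 3. OAT of the same list had 5.42 to 8.69 TPM in RES, against 13.3 to 47.8 TPM in 3 ADL lambs and 5.93 TPM in ADL 3. The other pericentral genes, GLUL, CYP2E1, AXIN2, LGR5, SLC1A2 and RHBG, overlapped between RES and those 3 ADL lambs. The 5 matched sinusoidal endothelial markers, likewise above 0 in every lamb, summed to 167 to 249 TPM in RES, against 255 to 333 TPM in 3 ADL lambs and 155 TPM in ADL 3. LYVE1 of that list had 49.9 to 111 TPM in RES, against 126 to 168.5 TPM in 3 ADL lambs and 64.9 TPM in ADL 3. Levels of STAB1, STAB2, FCN3 and CLEC4G overlapped between RES and those 3 ADL lambs. The 7 matched acute phase genes, all above 0 in every lamb, summed to 25092 to 111833 TPM in RES, with the highest value in RES 4, against 32166 to 82297 TPM in 3 ADL lambs and 129493 TPM in ADL 3. Lists for cholangiocytes, macrophages, stellate cells, lymphocytes and red blood cells were also summed, and each sum overlapped between RES and those 3 ADL lambs. Within these lists KRT19 had 1.61 to 3.63 TPM in RES, against 5.06 to 11.85 TPM in all ADL lambs. C1QA ran the other way, with 297 to 323 TPM in RES, against 203.5 to 279 TPM in all ADL lambs. The part of all these lists in the results below was not tested. In bulk tissue, fewer cells of a type and less RNA per cell cannot be told apart.

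Transcripts of GNMT and of the transsulfuration enzymes CBS and CTH were lower in every RES lamb than in ADL 1, ADL 2 and ADL 4, whereas ADL 3 lay inside the RES range. Without ADL 3, GNMT, CTH, CBS and MAT2A fell in RES, with log2 fold changes (RES over ADL) of -4.69, -3.23, -1.28 and -0.89 (limma adjusted p = 0.000649 to 0.0283). That is 4 of 9 members called lower, against 7.59% of all 13815 genes tested in that fit called lower in RES. The choice to set ADL 3 aside rested partly on these same levels. After median-of-ratios rescaling the same 4 were called (-4.54, -3.08, -1.13 and -0.74; adjusted p = 0.00192 to 0.0433), against 3.88% of all genes called lower. With all 8 lambs, limma called none of the 9 (1 of all 13812 genes, 0.00724%). At an unadjusted p under 0.05 it then listed 4 members, GNMT, CTH, CBS and MAT1A, all lower in RES, against 4.17% of all genes lower and 9.70% in either direction. At the adjusted threshold the homocysteine-releasing enzyme AHCY and the remethylating enzymes BHMT and MTR passed in neither fit, and nor did MAT1A and CDO1.

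**Figure D1:**
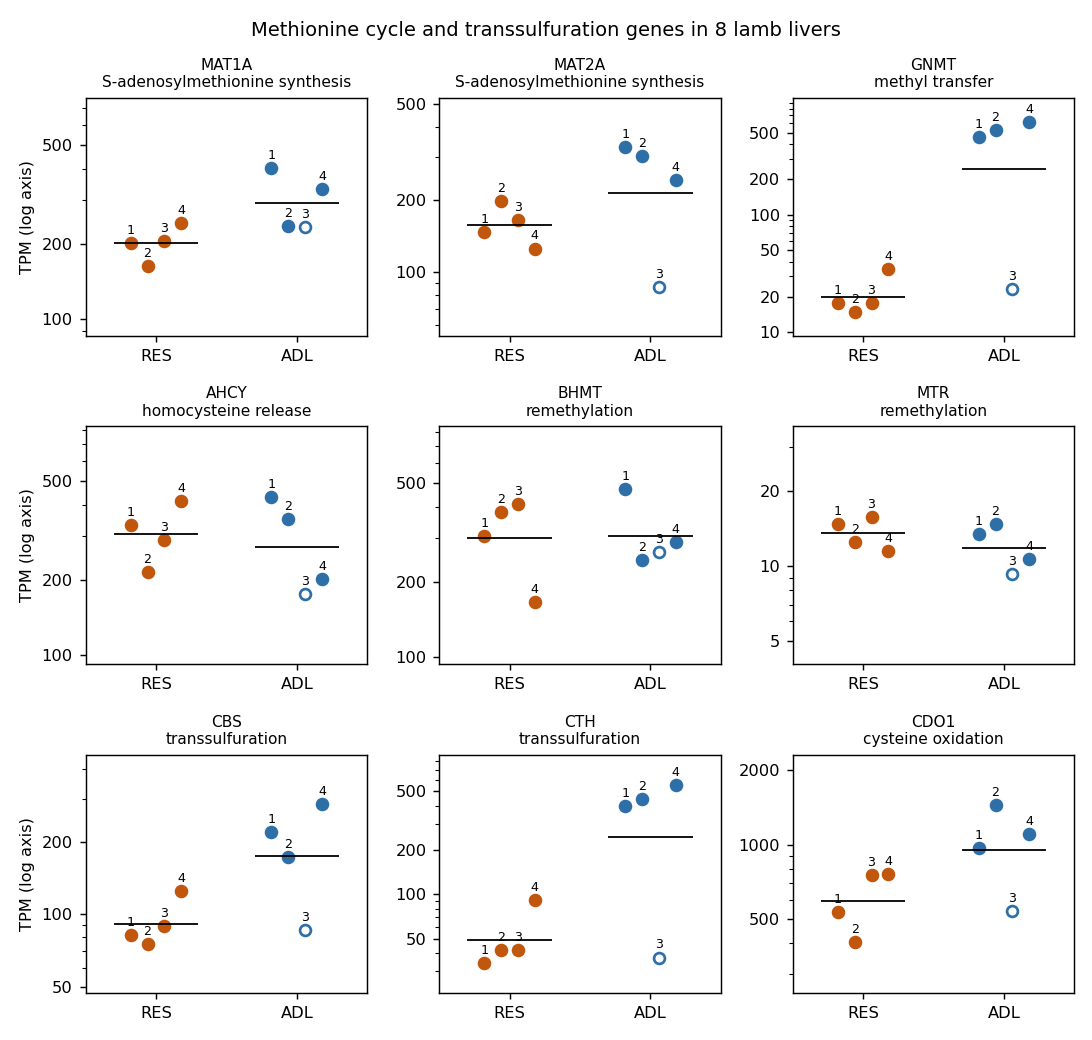
TPM of the 9 genes in each lamb on a log axis, RES on the left and ADL on the right of each panel; digits are lamb numbers, the open circle is ADL 3 and lines are geometric means of the 4 lambs. GNMT is at 14.9 to 34.7 TPM in RES and at 458 to 616 TPM in ADL 1, ADL 2 and ADL 4, with ADL 3 at 23.3 TPM.

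The first step, synthesis of S-adenosylmethionine, is served by 2 isozymes. MAT1A is the form of the adult liver (chromosome 25, 35187583 to 35220047, minus strand, 11 exons; coordinates throughout are as deposited, with no genome build named in the labels or headers used here). It had 202, 164, 207 and 242 TPM in RES 1 to RES 4, against 403, 236, 233 and 333 TPM in ADL 1 to ADL 4. The groups overlapped, since RES 4 lay above ADL 2 and ADL 3. MAT1A had a log2 fold change of -0.54 (95% interval -1.03 to -0.05, adjusted p = 0.487), and -0.65 without ADL 3 (adjusted p = 0.0860).

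MAT2A is the isozyme of most other tissues and of the fetal liver (chromosome 3, 57086955 to 57093487, plus strand, 9 exons). It had 147, 198, 164 and 125 TPM in RES 1 to RES 4, against 331, 302, 86.7 and 242 TPM in ADL 1 to ADL 4. ADL 3 had the lowest level of the 8 lambs, below every RES lamb, and the other ADL lambs were all above RES. The log2 fold change was -0.45 in 8 lambs (SE 0.39, 95% interval -1.32 to 0.41, adjusted p = 0.748). Without ADL 3, MAT2A fell by 0.89 (SE 0.19, adjusted p = 0.0283).

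The ratio of MAT1A to MAT2A transcripts within a lamb was 1.38, 0.8286, 1.26 and 1.93 in RES 1 to RES 4, against 1.22, 0.781, 2.69 and 1.38 in ADL 1 to ADL 4. These ratios do not depend on how libraries are scaled. ADL 3 had the highest ratio and RES 4 the second highest, and the groups overlapped.

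GNMT, glycine N-methyltransferase, methylates glycine to sarcosine and is known as the main disposal route for surplus S-adenosylmethionine in the liver (chromosome 20, 16590192 to 16593757, plus strand, 6 exons). It had 17.6, 14.9, 17.6 and 34.7 TPM in RES 1 to RES 4, against 458, 529, 23.3 and 616 TPM in ADL 1 to ADL 4. The reads behind these levels numbered 138 to 377 in RES and 4067 to 5901 in ADL 1, ADL 2 and ADL 4, with 246 in ADL 3. Every RES lamb was an order of magnitude below ADL 1, ADL 2 and ADL 4, and ADL 3 lay inside the RES range.

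In the 8 lambs GNMT had a log2 fold change of -3.57 (SE 0.91, 95% interval -5.61 to -1.53, adjusted p = 0.282). Without ADL 3 it fell by 4.69 (SE 0.28, 95% interval -5.32 to -4.06, adjusted p = 0.000649), and the RES mean was 25.2-fold lower than that of the remaining 3 ADL lambs. By mean level GNMT was gene number 4191 of the table in RES and number 301 in ADL. In the authors' deposited table of all 8 lambs, GNMT had a shrunken log2 fold change of -1.53 (SE 0.34), an unshrunken value of -4.11 and an adjusted p of 0.00194. There, 2 of the 9 genes, GNMT and CTH, were called lower in RES at an adjusted p below 0.05, against 1.05% of the 16794 genes with one.

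AHCY, which hydrolyses S-adenosylhomocysteine to homocysteine and adenosine, lies on chromosome 13 (63143406 to 63159173, minus strand, 10 exons). It had 330, 216, 290 and 414 TPM in RES 1 to RES 4, against 430, 352, 176 and 201 TPM in ADL 1 to ADL 4. All RES levels lay inside the range of the ADL lambs. The log2 fold change was 0.17 (SE 0.32, 95% interval -0.54 to 0.88, adjusted p = 0.895). It was -0.037 without ADL 3 (95% interval -0.73 to 0.66), with the sign turned.

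GNMT was also set against AHCY, the next enzyme of the cycle. The ratio of GNMT to AHCY transcripts within a lamb was 0.0534, 0.0691, 0.0608 and 0.0837 in RES 1 to RES 4, against 1.07, 1.502, 0.133 and 3.07 in ADL 1 to ADL 4. In this ratio the groups did not overlap even with ADL 3, which lay nearest to RES. The ratio was computed because of the levels of its members, so no test is given for it.

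Homocysteine is remethylated by BHMT, which takes the methyl group from betaine, and by MTR, the vitamin B12 enzyme that takes it from folate. BHMT lies on chromosome 7 (9941346 to 9964619, plus strand, 9 exons). It had 306, 382, 412 and 166 TPM in RES 1 to RES 4, against 473, 244, 264 and 290 TPM in ADL 1 to ADL 4. The highest level was in ADL 1 and the lowest in RES 4, so the groups overlapped, and RES 1 to RES 3 lay above ADL 2 to ADL 4. Its log2 fold change was -0.036 (SE 0.32, 95% interval -0.74 to 0.67, adjusted p = 0.982), and its sign turned with rescaling (0.016). Without ADL 3 the value was -0.11 (95% interval -0.91 to 0.69).

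The paralogue BHMT2 was read at 37.1, 26.8, 32.6 and 8.33 TPM in RES 1 to RES 4, against 44.2, 6.90, 19.4 and 19.9 TPM in ADL 1 to ADL 4. Like BHMT, it was highest in ADL 1 and low in RES 4. Whether reads of the paralogues were counted for the wrong copy was not tested.

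MTR was the lowest of the 9 genes in level and the steadiest over lambs (chromosome 25, 9393190 to 9519247, plus strand, 34 exons). It had 14.8, 12.5, 15.7 and 11.5 TPM in RES 1 to RES 4, against 13.4, 14.8, 9.31 and 10.7 TPM in ADL 1 to ADL 4. The highest lamb had 1.69 times the lowest, against 41.4 times for GNMT. The log2 fold change was 0.18 (SE 0.19, 95% interval -0.23 to 0.60, adjusted p = 0.789), and 0.07 without ADL 3 (95% interval -0.29 to 0.44). Within a lamb BHMT transcripts were 14.4 to 30.7 times those of MTR in RES and 16.5 to 35.3 times in ADL.

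CBS condenses homocysteine with serine to cystathionine, the entry to transsulfuration (chromosome 1, 261133034 to 261153763, minus strand, 16 exons). It had 81.6, 75.3, 89.0 and 125 TPM in RES 1 to RES 4, against 219, 173, 86.2 and 287 TPM in ADL 1 to ADL 4. RES 4 was the highest RES lamb and ADL 3 lay among RES 1 to RES 3. The log2 fold change was -0.94 in 8 lambs (SE 0.34, 95% interval -1.70 to -0.18, adjusted p = 0.429). Without ADL 3, CBS fell by 1.28 (SE 0.23, adjusted p = 0.0176), and the RES mean was 2.44-fold lower than that of the 3 ADL lambs. Its adjusted p in the authors' deposited table is 0.0802.

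CTH splits cystathionine to cysteine and completes the path (chromosome 1, 45703719 to 45726932, plus strand, 13 exons). It had 34.2, 42.0, 42.2 and 92.0 TPM in RES 1 to RES 4, against 397, 442, 37.2 and 553 TPM in ADL 1 to ADL 4. RES 4 again had the highest level of its group, and ADL 3 was below 3 of the 4 RES lambs. The log2 fold change was -2.33 in 8 lambs (SE 0.76, 95% interval -4.03 to -0.62, adjusted p = 0.382). Without ADL 3, CTH fell by 3.23 (SE 0.32, adjusted p = 0.00238), an 8.82-fold lower mean. In the authors' deposited table its shrunken log2 fold change was -1.49, with an adjusted p of 0.00263.

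CBS and CTH stood in a different order in the 2 groups. The ratio of CBS to CTH within a lamb was 2.38, 1.79, 2.11 and 1.36 in RES 1 to RES 4, against 0.552, 0.391, 2.32 and 0.518 in ADL 1 to ADL 4. CBS thus exceeded CTH in every RES lamb and in ADL 3, and CTH exceeded CBS in the other ADL lambs. CTH stood at 0.102 to 0.112 of BHMT in RES 1 to RES 3 and at 0.553 in RES 4, against 0.841 to 1.91 in 3 ADL lambs and 0.141 in ADL 3.

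**Figure D2:**
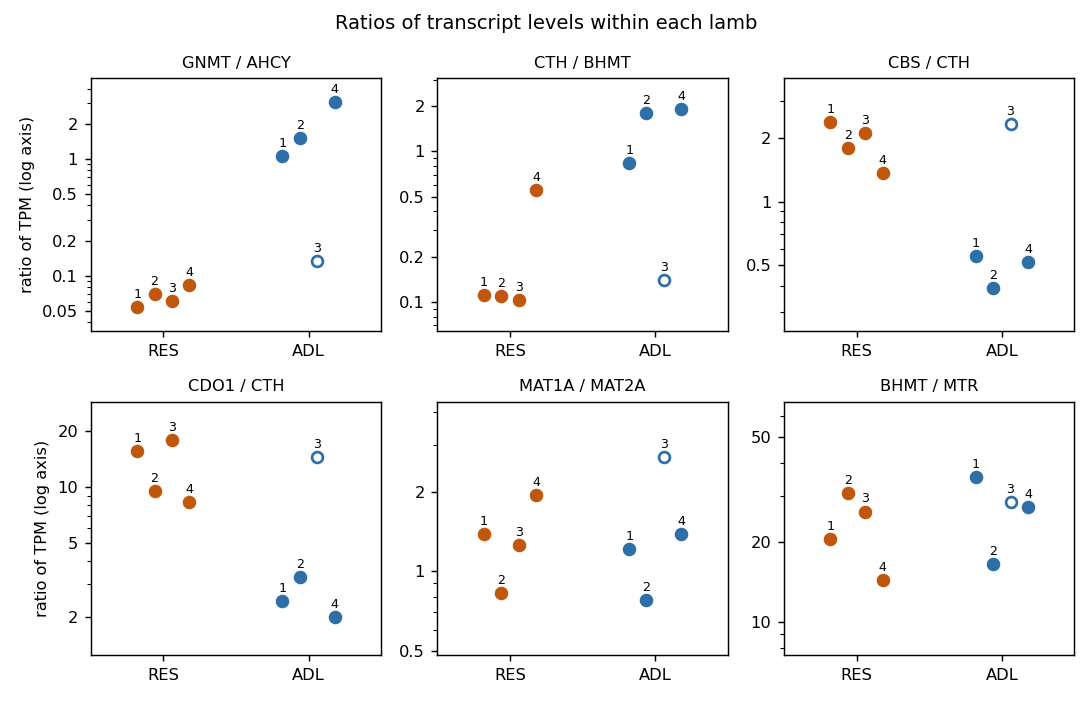
Ratios of TPM between pairs of the 9 genes within each lamb, on log axes, with RES on the left and ADL on the right; digits are lamb numbers and the open circle is ADL 3. GNMT over AHCY is 0.0534 to 0.0837 in RES and 0.133 to 3.07 in ADL, and CBS over CTH is above 1 in every RES lamb and in ADL 3.

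CDO1 oxidises cysteine to cysteine sulfinate, the precursor of taurine, and was the most abundant of the 9 transcripts (chromosome 7, 4421094 to 4432401, minus strand, 5 exons). It had 537, 403, 755 and 761 TPM in RES 1 to RES 4, against 971, 1443, 538 and 1105 TPM in ADL 1 to ADL 4. ADL 3 lay inside the RES range and the other ADL lambs were above it. The log2 fold change was -0.69 (SE 0.32, 95% interval -1.41 to 0.04, adjusted p = 0.544), and -0.96 without ADL 3 (SE 0.26, adjusted p = 0.0555). CDO1 transcripts were 8.28 to 17.9 times those of CTH in RES, against 2.00 to 3.27 times in 3 ADL lambs and 14.4 times in ADL 3.

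**Figure D3:**
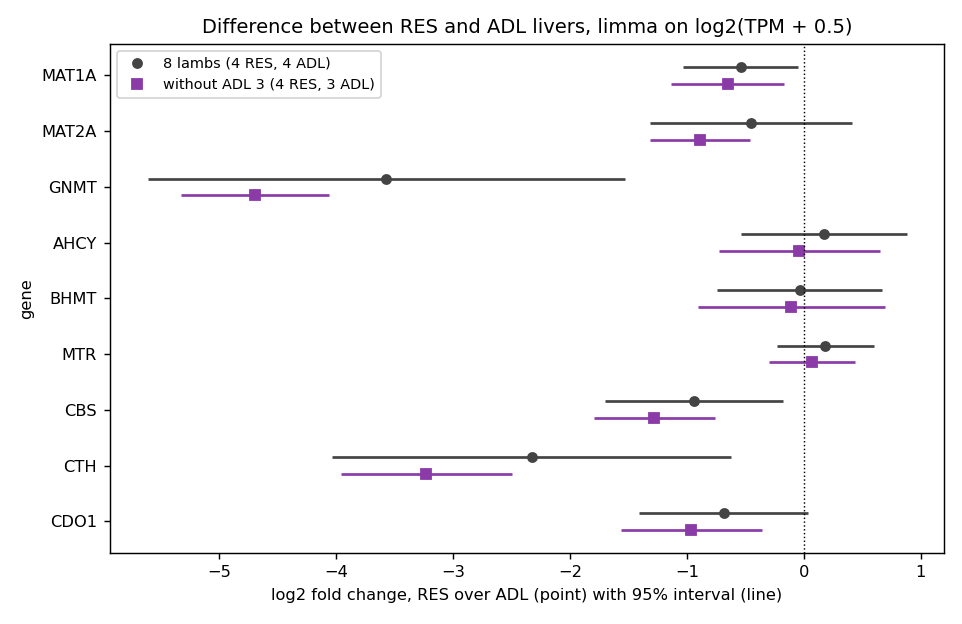
Log2 fold change of each gene, RES over ADL, on log2(TPM + 0.5), with its 95% interval from limma, in all 8 lambs (circles) and without ADL 3 (squares). Without ADL 3 the intervals of GNMT, CTH and CBS narrow and lie further below 0, and those of AHCY, BHMT and MTR span 0 in both fits.

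Over the 8 lambs, no member had groups that did not overlap, against 4.48% of all tested genes. With ADL 3 set aside, the 4 RES levels of GNMT, CTH, CBS, MAT2A and CDO1 all lay below the 3 ADL levels. That is 5 of 9 members, against 21.7% of all genes, in TPM as deposited. CDO1 leaves this count after median-of-ratios rescaling, for which the share of all genes was not computed. The 9 transcripts together made up 0.167, 0.151, 0.199 and 0.197% of all TPM in RES 1 to RES 4, against 0.370, 0.374, 0.145 and 0.364% in ADL 1 to ADL 4.

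The ranking of the genes by mean level also differed. In RES the order was CDO1 (614 ± 175 TPM), BHMT (316 ± 110), AHCY (313 ± 82.9), MAT1A (204 ± 32.0), MAT2A (158 ± 30.7), CBS (92.7 ± 22.2), CTH (52.6 ± 26.5), GNMT (21.2 ± 9.07) and MTR (13.6 ± 1.97; SD, n = 4 for each gene). Each gene's range in RES overlapped that of the next in this order, apart from MAT2A and CBS, whose ranges just missed each other (125.2 and 124.9 TPM). In ADL the order was CDO1 (1014 ± 375 TPM), GNMT (407 ± 264), CTH (357 ± 223), BHMT (318 ± 105), MAT1A (301 ± 82.0), AHCY (290 ± 122), MAT2A (240 ± 109), CBS (191 ± 84.3) and MTR (12.0 ± 2.49; SD, n = 4 for each gene). With ADL 3 among them, the ADL ranges of neighbours in this order overlapped, except that MTR lay below all other members. GNMT and CTH thus stood just below CDO1 in ADL, and just above MTR in RES.

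RES 4 was the RES lamb with the highest GNMT, CTH, CBS, MAT1A, AHCY and CDO1 and the lowest MAT2A, BHMT and MTR. With both ADL 3 and RES 4 set aside, 5 of 9 members were called lower in RES, against 5.07% of all genes. Both lambs were set aside with these levels in view, so this fit is no independent test of the members. In that fit the log2 fold changes were -4.95 for GNMT, -3.53 for CTH, -1.43 for CBS, -1.08 for CDO1 and -0.78 for MAT2A (limma adjusted p = 4.07e-05 to 0.0485).

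Around these 9 genes, 53 further genes of methyl, folate and sulfur metabolism were listed. Of these, 51 were found, 48 passed the filter on mean TPM, and MTHFD2, MTHFD2L and GADL1 did not. In the 8 lambs limma called none of the 48. Without ADL 3 it called 7, of which 5 rose and 2 fell in RES, against 2.42% of all genes called higher and 7.59% called lower. In the authors' deposited DESeq2 table of all 8 lambs, PEMT alone of these 7 had an adjusted p below 0.05 (0.00181). There it was 0.0793 for GOT1, 0.159 for ODC1, 0.252 for FPGS, 0.337 for SARDH, 0.408 for GSS and 0.535 for ALDH1L2. After rescaling without ADL 3 limma called 10 (8 higher, 2 lower), with PIPOX, SHMT1 and ADI1 added, against 4.45% of all genes higher and 3.88% lower. All tested genes had a median log2 fold change of -0.04 in 8 lambs and -0.13 without ADL 3, and of 0.01 after rescaling without ADL 3. The list medians below are to be read against these.

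None of the 7 direct partners of the cycle was called in either fit (median log2 fold change -0.07 in 8 lambs, -0.15 without ADL 3). They include the regulatory subunit MAT2B, AHCYL1, AHCYL2, BHMT2, the MTR reductase MTRR and ADK, which removes adenosine. ADK had the smallest p, with 68.6, 119, 116 and 89.2 TPM in RES 1 to RES 4, against 54.9, 79.1, 72.2 and 67.3 TPM in ADL 1 to ADL 4. Its log2 fold change was 0.50 in 8 lambs (adjusted p = 0.496).

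Of 6 tested methyltransferases that use S-adenosylmethionine, 1 rose without ADL 3. This was PEMT, which makes phosphatidylcholine from phosphatidylethanolamine with 3 methyl transfers. It had 220, 164, 196 and 113 TPM in RES 1 to RES 4, against 28.7, 76.2, 64.5 and 40.8 TPM in ADL 1 to ADL 4. All RES lambs were above all ADL lambs, ADL 3 included. In GNMT, by contrast, RES lambs lay below ADL 1, ADL 2 and ADL 4, with ADL 3 inside the RES range. PEMT had a log2 fold change of 1.77 in 8 lambs (adjusted p = 0.182) and rose by 1.90 without ADL 3 (SE 0.34, adjusted p = 0.0189). In the authors' deposited DESeq2 table of all 8 lambs its shrunken log2 fold change was 1.31, with an adjusted p of 0.00181. The median of these 6 genes was -0.06 in 8 lambs and -0.01 without ADL 3.

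Among the 5 enzymes that oxidise choline and the methyl groups of glycine, SARDH, the mitochondrial sarcosine dehydrogenase that acts on the product of GNMT, rose by 1.09 without ADL 3 (SE 0.14, adjusted p = 0.00612). It had 20.1, 26.3, 23.2 and 21.1 TPM in RES 1 to RES 4, against 11.6, 9.01, 22.1 and 10.6 TPM in ADL 1 to ADL 4. ADL 3 again lay inside the RES range. In 8 lambs the log2 fold change was 0.82 (adjusted p = 0.359). The median of the 5 was 0.23 in 8 lambs and 0.20 without ADL 3, and after rescaling without ADL 3 PIPOX, which oxidises sarcosine in peroxisomes, was called higher too.

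Of 10 tested folate genes, 8 had a log2 fold change above 0 in 8 lambs (median 0.52), and 2 rose without ADL 3. ALDH1L2, the mitochondrial formyltetrahydrofolate dehydrogenase, had 17.3, 16.7, 20.4 and 13.95 TPM in RES 1 to RES 4, against 1.14, 1.796, 16.4 and 2.44 TPM in ADL 1 to ADL 4. It rose by 2.97 without ADL 3 (SE 0.22, adjusted p = 0.000822), and in 8 lambs its log2 fold change was 2.24 (adjusted p = 0.2945). The authors' deposited DESeq2 table gives ALDH1L2 a shrunken log2 fold change of 0.52, with an adjusted p of 0.535. FPGS, which adds the glutamate tail that keeps folate in cells, had 32.8, 33.7, 33.99 and 45.7 TPM in RES 1 to RES 4, against 18.7, 18.4, 29.3 and 27.7 TPM in ADL 1 to ADL 4. All RES lambs were above all ADL lambs in TPM as deposited, but ADL 3 lay inside the RES range after median-of-ratios rescaling. FPGS had a log2 fold change of 0.64 in 8 lambs (adjusted p = 0.365) and rose by 0.76 without ADL 3 (adjusted p = 0.0419). Without ADL 3 and RES 4 the value was 0.65 (adjusted p = 0.0647). The median of the list was 0.52 without ADL 3 as well.

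Of 11 tested genes that use cysteine or its products, 10 had a log2 fold change above 0 in 8 lambs (median 0.38; 0.34 without ADL 3). Without ADL 3, 1 rose and 1 fell. GSS, the second enzyme of glutathione synthesis, had 7.43, 7.37, 9.86 and 9.92 TPM in RES 1 to RES 4, against 5.42, 4.06, 8.06 and 6.03 TPM in ADL 1 to ADL 4. ADL 3 lay inside the RES range. GSS rose by 0.69 without ADL 3 (limma adjusted p = 0.0470). Without ADL 3 and RES 4 its log2 fold change was 0.63 (adjusted p = 0.0855). GOT1, the cytosolic aspartate aminotransferase that also acts on cysteine sulfinate, had 15.5, 21.0, 20.1 and 70.8 TPM in RES 1 to RES 4, against 207, 595, 20.2 and 467 TPM in ADL 1 to ADL 4. It fell by 3.86 (SE 0.55, adjusted p = 0.00984), with ADL 3 inside the RES range. In 8 lambs the log2 fold changes of GSS and GOT1 were 0.54 and -2.80 (adjusted p = 0.476 and 0.394).

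Of 9 genes of methionine salvage and polyamine synthesis, 1 fell without ADL 3 and none rose (median -0.12 in 8 lambs, -0.28 without ADL 3). ODC1, which starts polyamine synthesis, had 21.5, 22.2, 21.65 and 27.2 TPM in RES 1 to RES 4, against 90.9, 64.1, 12.95 and 47.6 TPM in ADL 1 to ADL 4. ADL 3 had the lowest level of all and the other ADL lambs the highest. ODC1 fell by 1.48 without ADL 3 (SE 0.21, adjusted p = 0.00984), and in 8 lambs its log2 fold change was -0.91 (adjusted p = 0.606).

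**Figure D4:**
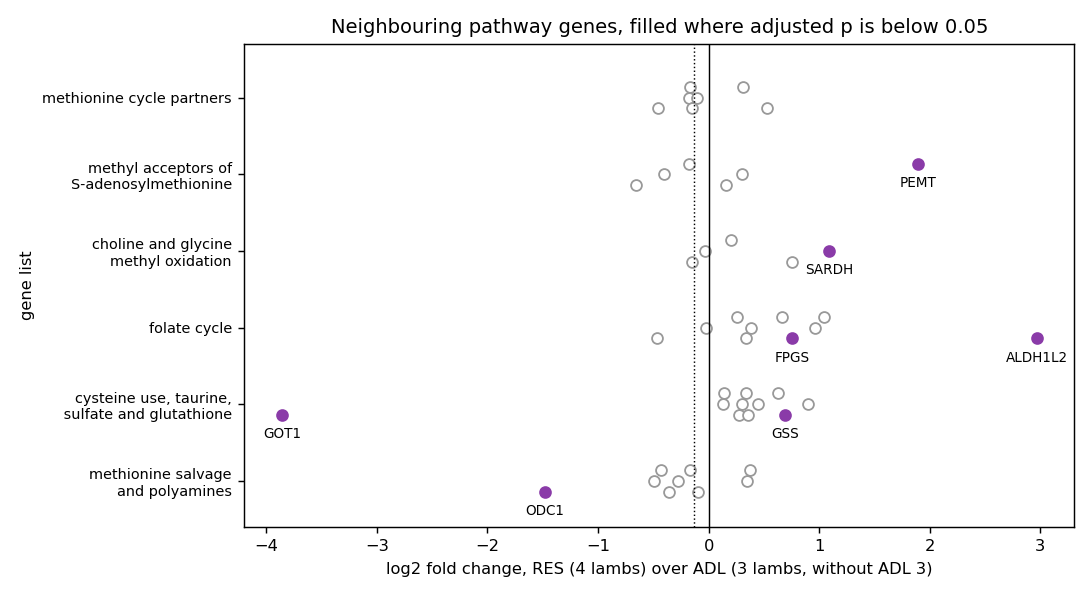
Log2 fold change, RES over ADL without ADL 3, of the 48 tested genes around the 9, by list; filled, named points have a limma adjusted p below 0.05, and the dotted line marks the median of all tested genes (-0.13). PEMT, SARDH, ALDH1L2, FPGS and GSS lie to the right, and GOT1 and ODC1 to the left.

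The profiles most like that of GNMT over the 8 lambs were sought among 11005 other genes with a symbol, by the root mean square difference of log2 values centred on each gene's mean. They were GOT1 (0.60), the fatty acid elongase ELOVL7 (0.63), CTH (0.69), MTMR7 (0.73) and glycerol kinase, GK (0.73). ELOVL7 had 0.905 to 2.16 TPM in RES, against 32.2 to 55.8 TPM in 3 ADL lambs and 0.632 TPM in ADL 3. GK had 8.64 to 15.7 TPM in RES, against 105 to 139 TPM in 3 ADL lambs and 10.8 TPM in ADL 3. The closest profiles to BHMT were IGSF11 (0.15), MRPL30 (0.17), and NUPL2, TNIK and THNSL2 (0.19 each), none of which belongs to the lists above.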

How the data were processed

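Liver poly(A) RNA was sequenced from both ends, 1 library per lamb (4 RES, 4 ADL), per the labels' protocols. The submitters' processing notes name DESeq2 1.12.4 and bcl2fastq 1.8.4. No label or header used here names an aligner, a counter or a genome build. The deposited values are TPM per lamb. The authors' DESeq2 comparison, per the file headers, adds a normalised mean signal, log2 fold changes (shrunken and maximum likelihood), a test score, and p-values with adjusted p-values. TPM sum to 1000000 per lamb, so abundant genes lower all others. TPM times gene length gave whole reads (100% of values above 0, tolerance 0.001), which set the depth. With at least 138 reads behind each member in each lamb, counting error was small against the spread between lambs.

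Genes were kept from a mean of 1 TPM upwards and fitted with limma 3.58.1 in R 4.3.3 (trended prior, two-sided) on log2(TPM + 0.5), which understates changes of low genes. P-values were adjusted by Benjamini-Hochberg over all tested genes, with a threshold of 0.05, and no p is given for ratios or lists. The 9 members and the lists were chosen with earlier results of these data known. The rule for named genes took all members, up to 4 called genes of each list (or the one with the smallest p), and the 5 profiles closest to GNMT and to BHMT. List names were matched by symbol or Entrez identifier. The procedure was tested on simulated reads. Alternatives were other pseudocounts, filters and scalings, age, lamb number, voom, sample weights and leaving out lambs. Combinations of leaving out ADL 3 with another change were added after seeing the data. Promoter and protein sequences were not used here.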

Additional observations from a re-analysis of the deposited data

Results flagged for a closer look

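Of 50 groups of 4 lambs examined (25 genes, each in RES and in ADL), 7 had a lamb whose gap to the nearest other lamb exceeded Dixon's 95% limit as a share of the group's range on the log2 scale. Chance gives about 1 in 20 for groups chosen without regard to their values, a rate that does not apply here, because several of the genes were named for their likeness to GNMT or for passing the test without ADL 3. In 4 of the 7 that lamb was ADL 3, low in GNMT (0.909 of the range), GK (0.889), CTH (0.877) and ELOVL7 (0.861). GK, CTH and ELOVL7 are among the profiles closest to GNMT over the same lambs, so their gaps repeat that of GNMT. RES 4 was high among RES lambs in FPGS (0.896) and in ODC1 (0.859), and RES 3 was low in MTMR7 (0.893), where its level was 0.288 TPM. GNMT in ADL 3 rested on 246 reads and CTH on 646, and both levels lay inside the range of the 4 RES lambs. ADL 3 was 36 days old and weighed 12.05 kg at slaughter, within the ranges of its group. Whether the label of this library is right was not tested. Its PEMT level lay below those of all RES lambs. Its FPGS level did so in TPM as deposited but not after median-of-ratios rescaling.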

How the results depend on the processing

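The calls turned on ADL 3. Leaving out 1 lamb at a time gave 0 to 1382 called genes in all, 0 to 4 called members and 0 to 7 called neighbours; any member or neighbour call came without ADL 3, and 49 genes in all passed without RES 4. Genes called in all numbered 0 without a filter, 0 with median-of-ratios rescaling and 0 with lamb number as a replicate block. Sample quality weights, which gave ADL 3 a weight of 0.160, called 1969 genes, 6 members (MAT1A and CDO1 added) and 9 neighbours. Without ADL 3, rescaling gave 1151 genes (615 higher and 536 lower, against 334 and 1048 as deposited), 4 members and 10 neighbours. Age as a covariate there gave 1463 genes, 5 members and 9 neighbours, and leaving out RES 4 as well gave 1145, 5 and 7. The cause of these shifts was not tested. GNMT, CTH, CBS, MAT1A, MAT2A, CDO1 and MTR kept their direction under all 21 alternatives. AHCY, at 0.17 in 8 lambs and up to 0.39 without ADL 1, turned to -0.037 without ADL 3, -0.050 with age added and -0.19 without RES 4 too. BHMT, at -0.036, ranged down to -0.19 when 1 lamb was left out (RES 3) and to -0.22 with age as a covariate, and turned to 0.016 with rescaling, 0.10 with weights, 0.17 without ADL 1, 0.25 without RES 4, 0.042 without ADL 3 after rescaling and 0.17 without ADL 3 and RES 4. The correlation of same-numbered deviations was -0.044 to 0.159, against -0.276 to 0.21 for lambs of different number. So few values cannot decide whether the numbers pair the lambs. The replicate block called 0 members and 0 neighbours (GNMT limma adjusted p = 0.183, with SE 0.70 against 0.91 without the block).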

Other observations

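A further methyltransferase of the lists was named only after its values had been seen. NNMT, which methylates nicotinamide with S-adenosylmethionine, had 0.866, 1.38, 1.34 and 5.73 TPM in RES 1 to RES 4, against 1.16, 2.33, 24.3 and 5.71 TPM in ADL 1 to ADL 4. It was highest in ADL 3, and RES 4 was the highest RES lamb, the lambs that were also highest in the sum of acute phase genes.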
